A study of Mus musculus with 2 samples.

Results

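The p53 peaks described here lie in windows around the genes of 8 early lineage regulators of the mouse embryo: T, Eomes, Gata4, Gata6, Sox17, Foxa2, Cdx2 and Pax6. The peaks were not assigned to these genes or to their neighbours. A peak was taken as a member when its midpoint fell in a fixed window around the gene on build mm9, and 27 of the 92924 peaks of the list did so. The windows ran from 60 to 120 kb and together spanned 610 kb on 7 chromosomes, since Foxa2 and Pax6 both lie on chromosome 2. The rule uses positions only, not the score or width of a peak.

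The list comes from mouse embryonic stem cells of a C57BL/6X129Sv mixed background, kept below passage 20 in serum and leukemia inhibitory factor. All cells were exposed to Nutlin for 8 hours; the dose was 20, in µM by the design text but in mM by the treatment labels, and which unit applies was not settled. From these cells 1 library was made after immunoprecipitation with M-19, an antibody to p53, and 1 from input chromatin without antibody. The peaks are taken here as regions where the first exceeded the second, since these were the only 2 libraries. With 1 library per group and no untreated cells, no value below has an error between cultures or measures a response to Nutlin. The intervals cover the counting error of peaks only, and read depth is unknown. The list holds no expression values, and the identity of the cells was not checked with markers.

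p53 is a sequence-specific transcription factor that is marked for degradation by Mdm2, a ubiquitin ligase, and Nutlin blocks the contact between the pair. The 8 genes encode transcription factors that are low or silent in undifferentiated embryonic stem cells and are switched on as cells leave pluripotency. T (brachyury) and Eomes are T-box factors of the primitive streak, from which mesoderm and definitive endoderm arise, and Eomes also acts in trophoblast. Gata4 and Gata6 are zinc finger factors of primitive endoderm and heart, Sox17 is an HMG-box factor of endoderm, and Foxa2 is a forkhead factor of endoderm, node and floor plate. Cdx2 is the homeobox factor that specifies trophectoderm and later patterns the hindgut, and Pax6 is a paired-box factor of neural tissue and eye.

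p53 binds a response element built from a repeated decamer. Promoter sequences from RefSeq on build GRCm38.p6, from 250 bases before to 50 bases after a transcription start, were at hand for 5 of the 8 genes (T, Eomes, Foxa2, Cdx2 and Pax6), with 8 starts in all. None of these 8 promoters held an exact match to the p53 decamer consensus, which reads the same on both strands; of all 32851 promoters in the table, 8.36% held one. With 1 mismatch allowed outside the core C and G, both Pax6 promoters held a match, as did 50.9% of all promoters. A match is a description of letters, and these promoters could not be placed against the peaks, which are on another build. The 250 bases upstream of the start are shown for T, whose window held the highest score, and for Cdx2, with the most peaks scoring 100 or more. They are also shown for the second Pax6 start, where the match lies upstream, and capitals mark that match.
T chr17:8434173-8434422 (+): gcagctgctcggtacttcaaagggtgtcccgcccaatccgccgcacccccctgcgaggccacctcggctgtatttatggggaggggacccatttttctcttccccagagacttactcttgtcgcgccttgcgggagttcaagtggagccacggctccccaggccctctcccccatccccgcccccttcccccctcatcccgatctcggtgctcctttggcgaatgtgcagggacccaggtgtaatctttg
Cdx2 chr5:147307250-147307499 (-): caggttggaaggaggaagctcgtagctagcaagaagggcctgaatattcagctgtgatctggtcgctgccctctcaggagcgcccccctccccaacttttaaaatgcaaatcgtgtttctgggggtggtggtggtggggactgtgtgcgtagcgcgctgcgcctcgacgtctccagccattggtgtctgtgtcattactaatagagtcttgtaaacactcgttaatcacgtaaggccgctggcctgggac
Pax6 chr2:105682213-105682462 (+): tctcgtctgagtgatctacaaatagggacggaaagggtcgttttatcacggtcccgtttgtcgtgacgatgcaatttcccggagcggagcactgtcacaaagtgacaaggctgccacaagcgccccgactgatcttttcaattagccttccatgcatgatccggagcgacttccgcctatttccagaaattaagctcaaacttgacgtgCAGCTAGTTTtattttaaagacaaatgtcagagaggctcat

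All 8 windows held p53 peaks, between 2 and 5 each, and a difference in density from the rest of their chromosomes was not detectable with these counts. Holding a peak was common. Of windows of the same length laid end to end on the rest of each chromosome, 25.3% (Gata6) to 34.7% (Foxa2) held none. The 27 peaks compare with 23.1 that the density of the rest of each chromosome would place in the same length, a ratio of 1.17 (exact 95% Poisson interval 0.772 to 1.70). Peaks were unevenly spread along the chromosomes. At the T length, chromosome 17 would place 2.90 peaks per window, yet the median such window held 1 and 31.5% held none. Poisson intervals take peaks as independent, so here and below they are likely too narrow. The intervals given below for shares and medians make the same assumption. Scores under 100 were carried by 14 of the 27. The score is the authors' own value for each peak; it starts at 50 in this list and grows with the strength of enrichment and with depth. A score of 1000 or more was reached by 2 of the 27 peaks, 7.41% (exact Clopper-Pearson 95% interval 0.910% to 24.3%), against 5.77% of the whole list. A score of 100 or more was reached by 13 peaks, 48.1% (28.7% to 68.1%), against 43.0% of the list. No member stood at 3100, the value at which the strongest peaks of the list pile up, or above it.

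**Figure D1:**
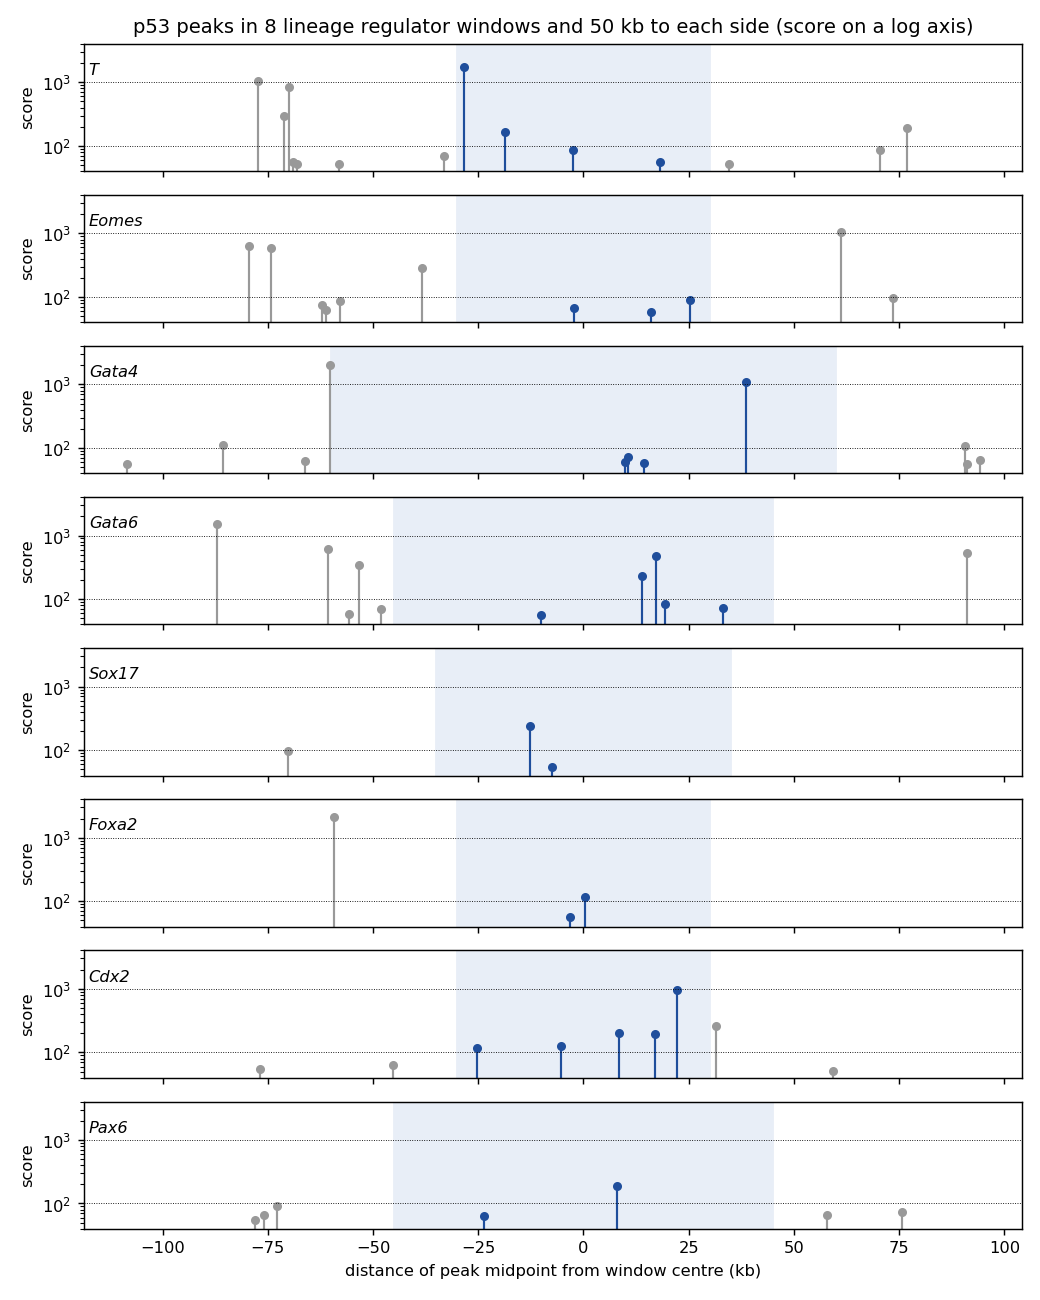
Each row is a locus: the horizontal axis is the distance of a peak's midpoint from the centre of the window in kb, the vertical axis is the peak score on a log scale, and dotted lines mark scores of 100 and 1000. Blue stems are the 27 peaks inside the shaded windows and grey stems are the 42 peaks up to 50 kb outside; scores of 1000 or more inside a window occur at T and Gata4.

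At the T locus (chromosome 17, 8.6 to 8.66 Mb) 4 peaks were found, with 1 far above the others. It lay at chr17:8601024-8602329, was 1306 bases wide and scored 1720.44, the highest score and the largest width among the 27 peaks. Of the peaks on the rest of chromosome 17, 154 scored as high or higher, and 96.5% scored lower. This peak sits at the rim of the window, its midpoint 1676 bases inside the edge.

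The other T peaks stepped down in score along the chromosome. The peak at chr17:8611026-8611699 (674 bases) scored 165.91, and the peak at chr17:8627235-8627839 (605 bases), 2.46 kb before the centre of the window, scored 86.33. The last, at chr17:8647979-8648424 (446 bases), scored 55.85, close to the lowest score of the list. Gaps between them ran from 8696 to 20139 bases, all above the median gap of 6550.5 bases on the rest of the chromosome. The density was 66.7 peaks per Mb (95% interval 18.2 to 171) against 48.4 on the rest of chromosome 17, and 30.7% of windows of that length laid end to end on this chromosome held at least as many peaks. A peak that scored at least as high as the T maximum occurred in 9.05% of those windows, the smallest such share among the 8 loci.

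Eomes (chromosome 9, 118.36 to 118.42 Mb) was the only window without a peak of 100 or more. Its 3 peaks scored 67.32 at chr9:118387388-118387918, 57.43 at chr9:118405683-118406286 and 88.21 at chr9:118415108-118415418. Their widths were 531, 604 and 311 bases, so the peak with the highest score of the locus was also the narrowest of all 27. On the rest of chromosome 9, 41.0% of peaks scored 100 or more, and with 3 peaks the absence of such a peak says little. The density of 50 per Mb (10.3 to 146) lay near the 43.0 of the chromosome, and 37.1% of its windows of that length held at least as many peaks; 56.8% held a peak scoring at least as high. Stronger peaks lay close by outside the window: 4 of 8 peaks within 50 kb scored 100 or more, up to 1063.45 at chr9:118450893-118451668, with its midpoint 31.3 kb past the edge.

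The 4 endoderm windows, Gata4, Gata6, Sox17 and Foxa2, together held 13 peaks in 340 kb, 38.2 per Mb (20.4 to 65.4), and 5 of the 13 scored 100 or more. The T and Eomes windows held 7 peaks in 120 kb, 58.3 per Mb (23.5 to 120), with 2 of 7 at 100 or more; the share over the whole list was 43.0%. These intervals overlap widely, so no difference in density between the lineages was detectable. Their chromosomes also differed. The rest of the chromosome held 48.4 peaks per Mb for T and 43.0 for Eomes, against 27.1 (Gata4) to 41.7 (Foxa2) for the endoderm loci.

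At Gata4 (chromosome 14, 63.79 to 63.91 Mb) a triplet of weak peaks and 1 strong peak lay in the latter part of a 120 kb window. The triplet scored 61.00 at chr14:63859688-63860058, 73.01 at chr14:63860244-63860696 and 57.39 at chr14:63864210-63864644. The first pair was separated by 185 bases, the shortest gap among the 27 peaks. The strong peak, at chr14:63888405-63889051, was 647 bases wide and scored 1090.8, higher than 94.2% of peaks on the rest of the chromosome. Before the triplet no peak was called over 69509 bases, a stretch that begins inside the window at the end of a peak on its left edge.

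That peak, at chr14:63789160-63790178 with a score of 2037.01, straddles the edge: its midpoint lay 331 bases before the window, so it is not among the 27, and assignment by any overlap would count it. Chromosome 14 carried few peaks, 27.1 per Mb, and the Gata4 window held 33.3 per Mb (9.08 to 85.3). At least as many peaks occurred in 34.2% of windows of this length on the chromosome, and a peak as high as 1090.8 in 15.7%. The surrounding megabases were denser than the window, with 58.5 peaks per Mb in 1 Mb on each side. In RefSeq gene order on GRCm38, Gata4 lies between Neil2, a DNA glycosylase gene of base excision repair, and Blk, a B-cell tyrosine kinase gene; whether a given peak belongs to Gata4 or to a neighbour cannot be read from this list.

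Gata6 (chromosome 18, 11.02 to 11.11 Mb) held 5 peaks of low to middling score, 3 of them grouped. The group comprised 227.84 at chr18:11078688-11079270, 485.36 at chr18:11082082-11082474 and 84.42 at chr18:11084072-11084666, with gaps of 2811 and 1597 bases. The outer peaks scored 56.82 at chr18:11054771-11055209 and 71.44 at chr18:11097837-11098256. The peak of 485.36 was 393 bases wide, against a lower quartile of 548 bases for peaks of 250 to 500 on the rest of the 7 chromosomes. Width within the locus therefore did not follow score: the widest Gata6 peak, of 595 bases, scored 84.42.

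The Gata6 density of 55.6 per Mb (18.04 to 130) was 1.73 times that of the rest of chromosome 18 (0.560 to 4.03). At least as many peaks were found in 23.5% of the chromosome's windows of that length, and a peak of at least 485.36 in 24.3%. Gaps of at most 10 kb, such as those in this group, made up 46.9% of gaps on the rest of chromosome 18. Peaks of 1000 or more near Gata6 were outside the window, the nearest on the left at 1496.34 with its midpoint 42.2 kb away and the nearest on the right 1158 kb away.

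Sox17 and Foxa2 each held a single pair of peaks, and stood in the emptiest surroundings. The Sox17 window (chromosome 1, 4.46 to 4.53 Mb) had a peak of 244.07 at chr1:4481722-4482859 and a peak of 53.56 at chr1:4487319-4487697, 4459 bases apart. The first was 1138 bases wide, wider than 97.3% of the list, while its score exceeded that of 81.6% of the list. After the second peak no other followed for 258966 bases.

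The Foxa2 window (chromosome 2, 147.84 to 147.9 Mb) had a peak of 118.95 (752 bases) at chr2:147869904-147870655, 0.279 kb from the centre of the window, and a peak of 55.76 (405 bases) at chr2:147866592-147866996, with a gap of 2907 bases. The next peak on the right lay 136376 bases away. On the left, a peak of 2128.77 at chr2:147810234-147811133 had its midpoint 29.3 kb before the window and was the sole peak within 50 kb on either side. Densities were 28.6 per Mb (3.46 to 103) at Sox17 and 33.3 per Mb (4.04 to 120) at Foxa2, against 34.4 and 41.7 on the rest of their chromosomes. In 1 Mb on each side they were 21.0 and 20.0 per Mb, the lowest of the 8 loci. At least as many peaks were held by 45.0% of windows of the Sox17 length on chromosome 1 and by 45.8% of windows of the Foxa2 length on chromosome 2, and a peak at least as high by 31.2% and 45.5%.

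Cdx2 (chromosome 5, 148.08 to 148.14 Mb) was the window in which every peak scored 100 or more, 5 of 5, against 42.6% of peaks on the rest of chromosome 5. This share was the highest of 8 windows, and with 5 peaks it says little. In order along the chromosome the scores were 115.44 at chr5:148084454-148084919, 125.18 at chr5:148104356-148105146 and 199.39 at chr5:148117938-148119012, then 192.86 at chr5:148126596-148127291 and 946.88 at chr5:148131786-148132521. The last of these ranked above 94.4% of peaks on the rest of the chromosome. The gaps between them were 19436, 12791, 7583 and 4494 bases in the same order. A further peak, of 256.72, had its midpoint 1413 bases past the right edge, after a wider gap of 8516 bases. Of the 4 peaks within 50 kb outside the window, only that peak scored 100 or more.

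The widths at Cdx2 were 466, 791, 1075, 696 and 736 bases, and their median of 736 compares with 517 on the rest of the chromosome (quartiles 425 and 650). Width rises with score in this list, and every Cdx2 peak scored from 100 to under 1000. Peaks of that score class had a median of 623 bases on the rest of the 7 chromosomes. Peaks covered 6.27% of the window, the largest share among the 8 loci, against 2.62% of the rest of chromosome 5. The density, 83.3 per Mb (27.1 to 194), was also the highest of the 8, yet its ratio of 1.81 to the rest of the chromosome had an interval from 0.587 to 4.22. Among windows of that length on chromosome 5, 23.3% held at least as many peaks and 13.6% a peak at least as high. In 1 Mb on each side of the window, 36.8% of 136 peaks scored 100 or more. Without Cdx2, 8 of the remaining 22 peaks (36.4%) did so. In gene order Cdx2 lies between Pdx1, a homeobox gene of the pancreas, and Urad, an enzyme gene of urate breakdown, and the peaks were not assigned among them.

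Pax6 (chromosome 2, 105.48 to 105.57 Mb) had the lowest density of the 8. Its 2 peaks scored 64.04 at chr2:105501203-105501631 (429 bases) and 185.30 at chr2:105532662-105533325 (664 bases), and were 31030 bases apart, the longest gap within any window. With 22.2 per Mb (2.69 to 80.3) the window held 0.533 times the density of the rest of chromosome 2 (0.0645 to 1.92), and 55.5% of windows of that length held at least as many peaks. A peak of at least 185.30 occurred in 46.1% of them. The 5 peaks within 50 kb outside were all under 100, whereas 44.1% of peaks on the rest of chromosome 2 scored 100 or more. In 1 Mb on each side, 55.2% of 58 peaks scored 100 or more and 12.1% scored 1000 or more.

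**Figure D2:**
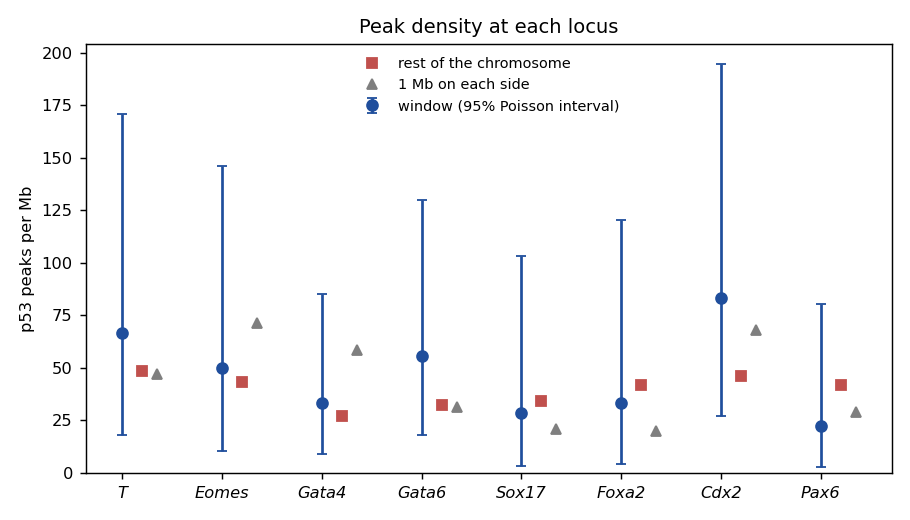
Peaks per Mb in each window (circles, with exact 95% Poisson intervals of the count), on the rest of the same chromosome (squares) and in 1 Mb on each side of the window (triangles). All 8 intervals include the density of the rest of the chromosome; the windows range from 22.2 per Mb at Pax6 to 83.3 per Mb at Cdx2.

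Set in order of density the loci ran Cdx2, T, Gata6, Eomes, Gata4 and Foxa2 (equal), Sox17, Pax6. The intervals of neighbours in this order, and of its ends, overlap, and the interval of each count included the number expected from the rest of its chromosome at all 8 loci. The density was above that of the chromosome at 5 loci (T, Eomes, Gata4, Gata6 and Cdx2) and below it at 3 (Sox17, Foxa2 and Pax6). Against 1 Mb on each side the split was also 5 to 3, but with other members: T, Gata6, Sox17, Foxa2 and Cdx2 lay above and Eomes, Gata4 and Pax6 below. Eomes, Gata4, Sox17 and Foxa2 thus changed sides with the background chosen.

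The scores of the 27 peaks had a median of 88.21 (exact order-statistic 95% interval 64.04 to 192.86), against 87.5 on the rest of the 7 chromosomes. The upper quartiles were 196 and 169. The median score of a locus was above that of the rest of its chromosome at 4 loci, Cdx2 (192.86), Sox17 (149), T (126) and Pax6 (125). It was below at Foxa2 (87.4), Gata6 (84.42), Eomes (67.32) and Gata4 (67.0). Scores were most unequal at T and Gata4, the 2 loci whose highest score was at least 10 times the next.

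Within 50 kb of a window, the strongest peak was as often outside as inside. The outside stretches were longer in total, 800 kb against 610 kb, and held more peaks, 42 against 27. At 4 loci (T, Sox17, Cdx2 and Pax6) the highest score in the window exceeded every score within 50 kb on either side. At Eomes, Gata4, Gata6 and Foxa2 a peak with its midpoint outside was higher, with 1063.45, 2037.01, 1496.34 and 2128.77. The 800 kb of such flanks held 42 peaks, 52.5 per Mb, of which 5 scored 1000 or more, 11.9% against 5.77% of the list and 7.41% in the windows. This difference was not tested.

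**Figure D3:**
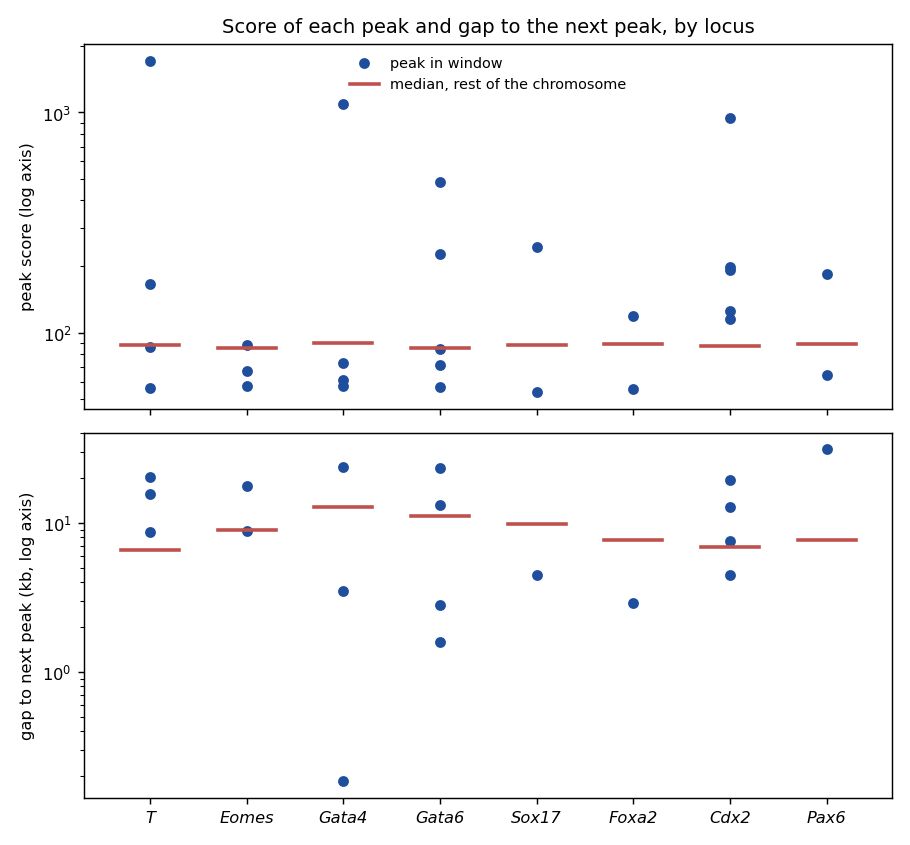
The upper panel gives the score of each of the 27 peaks by locus and the lower panel the 19 gaps in kb from a peak to the next in the same window, both on log axes; red bars are the medians of the rest of the chromosome. All Cdx2 scores lie above the bar, and 3 of 4 Gata4 scores lie below it.

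No difference in spacing from the rest of the chromosomes was detectable inside the windows. The 19 gaps between neighbours in a window had a median of 8821 bases (exact order-statistic 95% interval 3513 to 19436), against 8405 bases. Of these gaps 10, or 52.6%, were at most 10 kb long, against 54.5% elsewhere on the 7 chromosomes. A gap inside a window cannot exceed the window, which leaves out the long empty stretches beside Sox17 and Foxa2.

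Peak widths at the lineage loci had a median of 583 bases (435 to 674), against 510 bases on the rest of the 7 chromosomes, which lies inside the interval. Because width rises with score in this list, each member was set beside peaks of its own score class. There 14 of 27 widths fell within the quartiles, 9 were above the upper quartile and 4 below the lower. Those above were 2 peaks each at T, Eomes and Cdx2 and 1 each at Gata6, Sox17 and Foxa2. Together the 27 peaks covered 16344 bases, 2.68% of the windows, where the cover of the rest of the same chromosomes would give 2.12%.

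**Figure D4:**
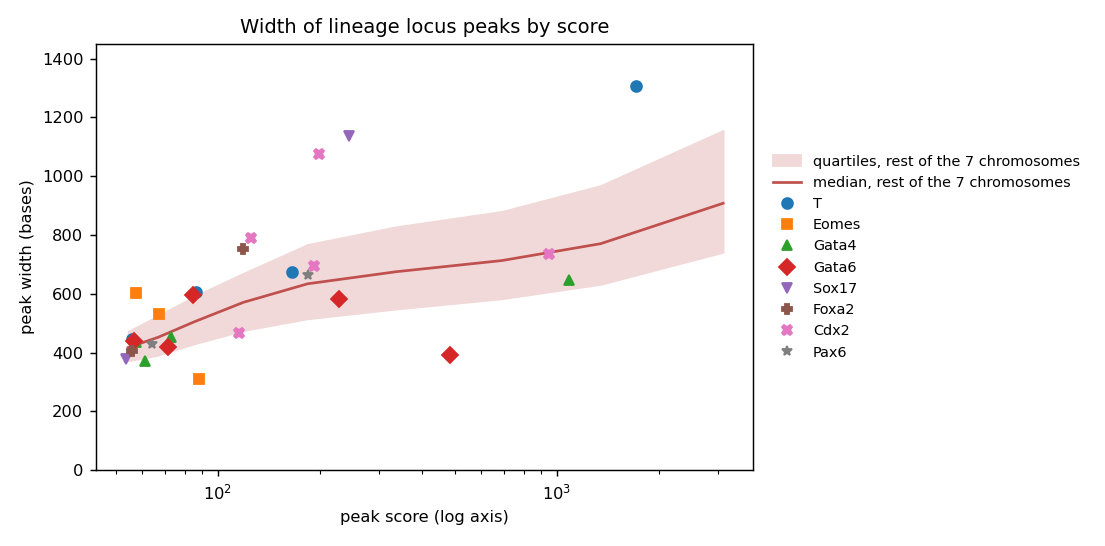
Peak width in bases against peak score (log axis) for the 27 peaks, with a symbol for each locus; the red line and band are the median and quartiles of the rest of the 7 chromosomes in 9 score classes. The widest member is the T peak of 1306 bases, and the Gata6 peak of 393 bases at a score of 485.36 lies below the band.

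The window edges matter for the strongest peaks. The member nearest to an edge was the T peak of 1720.44, 1676 bases inside, and the non-member with its midpoint nearest to an edge was that of 2037.01 at Gata4, which overlaps the window although its midpoint lies 331 bases outside. At the other edges the midpoints of the closest peaks outside lay between 1413 bases (Cdx2, right) and 216888 bases (Sox17, right) from the window.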

How the data were processed

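DNA from a p53 immunoprecipitation and from input chromatin was sequenced, 1 library each, and samples were grouped by title. CASAVA 1.8.2, MACS 1.4.1 and build mm9 are named in the submitters' processing notes. The sources used here give no aligner, caller settings or read totals. The peak score values were deposited by the authors as their caller wrote them; MACS 1.4 writes −10 × log10 of the p-value. Start positions, deposited counted from 0, are printed counted from 1. Density used the length between a chromosome's first and last peaks, less the windows. Windows of a locus's length were laid end to end from the locus outward. Gaps run from the end of a peak to the start of the next. With 1 library per group no test was made. Every peak was named where a window held 5 or fewer, which was the case at all loci. The loci, windows and measures were chosen with earlier results of these data known. No mm9 sequence or annotation was used; gene order came from RefSeq on GRCm38.p6. Python 3.11.15, NumPy 2.4.6, pandas 2.3.3, SciPy 1.17.1 and Matplotlib 3.10.9 were used, and the density and median functions were tested on simulated lists. The density lists scattered peaks evenly at random, unlike the real list, and the Poisson intervals were not checked on them.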

Additional observations from a re-analysis of the deposited data

How the results depend on the processing

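The pooled density ratio of 1.17 stayed within its counting interval under all 7 other settings tried for the windows, the peaks and the background, from 1.03 with 1 Mb on each side as background to 1.39 in windows narrowed to their middle 50%, and from 1.08 (without Cdx2) to 1.29 (without Pax6) with each locus left out, a check added after seeing the data. That interval is wide, 0.772 to 1.70, and the settings share many of the same peaks, so staying inside it says little. Several other values moved, some of them by construction. Keeping only scores of 100 or more left 13 peaks, with a median score of 199 and a median width of 696 bases. Narrowed windows held 16 peaks, 0% of them at 1000 or more, with a median gap of 3210 bases. The T and Gata4 peaks of 1000 or more lay 28.3 and 38.7 kb from their window centres, outside the middle 50%. Windows widened by 50 kb on each side held 69 peaks, 10.1% of them at 1000 or more. Allowing 1 mismatch raised the genes with a match to the p53 decamer from 0 to 1 of the 5 with promoter sequence. Such a match occurred in 50.9% of all promoters. Merging peaks up to 1 kb apart left 26 peaks, and assignment by any overlap gave 28, of which 10.7% scored 1000 or more. With each locus left out, the median score ran from 78.7 to 117, the share at 100 or more from 36.4% to 54.2%, the share at 1000 or more from 4.35% to 9.09%, the median width from 492 to 605 bases and the median gap from 8202 to 10806 bases. The share at 1000 or more was 4.35% without T or without Gata4, each of which holds 1 of the 2 such peaks. No paired analysis was possible because the ChIP and the input are single libraries, and no replicate could be left out. Counts of 2 to 5 peaks per window and unknown read depth limit any comparison between loci.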
